A study of Homo sapiens with 9 samples.

Results

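Messenger RNA of HaCaT cells, an established line of immortalised human keratinocytes, was compared between libraries of low-dose photodynamic therapy (ALA-PDT) and untreated control. The labels describe 9 samples, with 3 in each group. The groups are a control without treatment and low-dose ALA-PDT followed by 12 h or by 48 h of incubation. For ALA-PDT the labels give 0.5 mmol/L, red light of 635 ± 5 nm and a fluence of 3 J/cm2; no group with 5-aminolevulinic acid alone or light alone is described. The comparison covers 6 of the 9 libraries. Nc1, Nc2 and Nc3 were taken as control, which is a reading of their stem, and B1, B2 and B3 carry the treated stem whose columns come last in the deposited table. Nothing in the labels ties the stem B to a time, so B stands for ALA-PDT with an incubation that is either 12 h or 48 h and no time is claimed. HaCaT is 1 line, and the labels do not say whether the libraries of a group came from separate cultures, so the p-values measure the spread between these libraries, which may be technical. The 3 libraries of the other treated stem were not used.

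In ALA-PDT, 5-aminolevulinic acid enters the heme pathway and is turned into protoporphyrin IX, which transfers the energy of red light to oxygen and so oxidises lipids and proteins near the place where it was made. Cells answer such damage through several transcription programmes. ATF4 drives amino acid synthesis and import when translation is slowed, HSF1 drives chaperones when proteins unfold, NRF2 drives antioxidant enzymes, and HIF-1 drives glycolysis and angiogenic factors when oxygen or its sensing falls. Basal keratinocytes are known for KRT5 and for the laminins, integrins and desmosomes that hold them to their substrate and neighbours.

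The libraries held between 16354678 and 18028419 counts. The keratinocyte marker genes, 11 in all, summed to between 70261 and 82133 counts per library, with KRT14, the usual partner of KRT5, at 2 to 15 counts. Nc1, Nc2 and B3 stood apart from the others. The globin genes HBB, HBA1 and HBA2 summed to 7336, 7457 and 8381 counts in these 3 libraries, against 3, 4 and 8 counts in Nc3, B1 and B2. Leukocyte markers summed to 325, 279 and 345 counts in the former and to between 22 and 61 in the latter. Fibroblast markers summed to between 38 and 70 counts and melanocyte markers to between 124 and 208 in any library. Endothelial markers summed to 73, 54 and 48 counts in control and to 197, 246 and 235 in B, most of it CDH5. Nc1 also differed in base composition: genes poorest in GC (lowest quintile) deviated from the mean of the 6 libraries by a median log2 value of 0.35 in Nc1, against -0.003 and 0.06 in the other controls and -0.20, 0.05 and -0.25 in B. On the first principal component, which held 45.0% of the variance, the 3 control libraries lay on 1 side and the 3 B libraries on the other.

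Of 13680 genes tested, 1636 differed between B and control at an adjusted p under 0.05 by edgeR's quasi-likelihood test with Benjamini-Hochberg adjustment, which is 12% of the genes. Expression was higher in B for 750 genes (5.48%) and lower for 886 (6.48%). These genes are referred to as called. An unadjusted p under 0.05 was found for 3781 of the 13680 genes. The changes were mostly small, with a median log2 fold change of 0.82 among the higher calls and -0.64 among the lower ones, and the median over all genes tested was -0.002. A change of at least 2-fold was seen in 283 higher and 45 lower calls. When the test was made against a fold of 1.5 rather than against no change, 38 genes were called (0.278%), 30 of them higher and 8 lower. Every B library lay above every control library for 2255 genes (16.5%) and below for 1995 genes (14.6%). Among the calls, 734 of the higher and 869 of the lower had no overlap between the groups.

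The split by direction depended on the scaling between libraries. Higher calls made up 45.8% with TMM scaling, 57.3% with library totals and 62.3% with upper quartile scaling. The number of calls depended on the libraries used: it was 433 without B3 and 752 without Nc3, and between 1430 and 1825 without any one of the others. In each of these 6 fits with 1 library left out, 207 of the higher and 167 of the lower calls were made again in the same direction. With a term for the libraries that held globin counts the number was 997, and without those 3 libraries, which leaves Nc3 against B1 and B2, it was 48. No called gene had the opposite direction in any of the 20 other settings. These settings reuse the same libraries, and most calls had no overlap between the groups, so few could have reversed. Called genes also differed in base composition, since the median GC content was 51.5% for higher calls, 40.3% for lower calls and 48.4% for all genes tested. With offsets for GC content and length, 3006 of 13671 genes were called, 1460 higher and 1546 lower. Of the 1636 calls, 1454 were made again in the same direction.

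**Figure D1:**
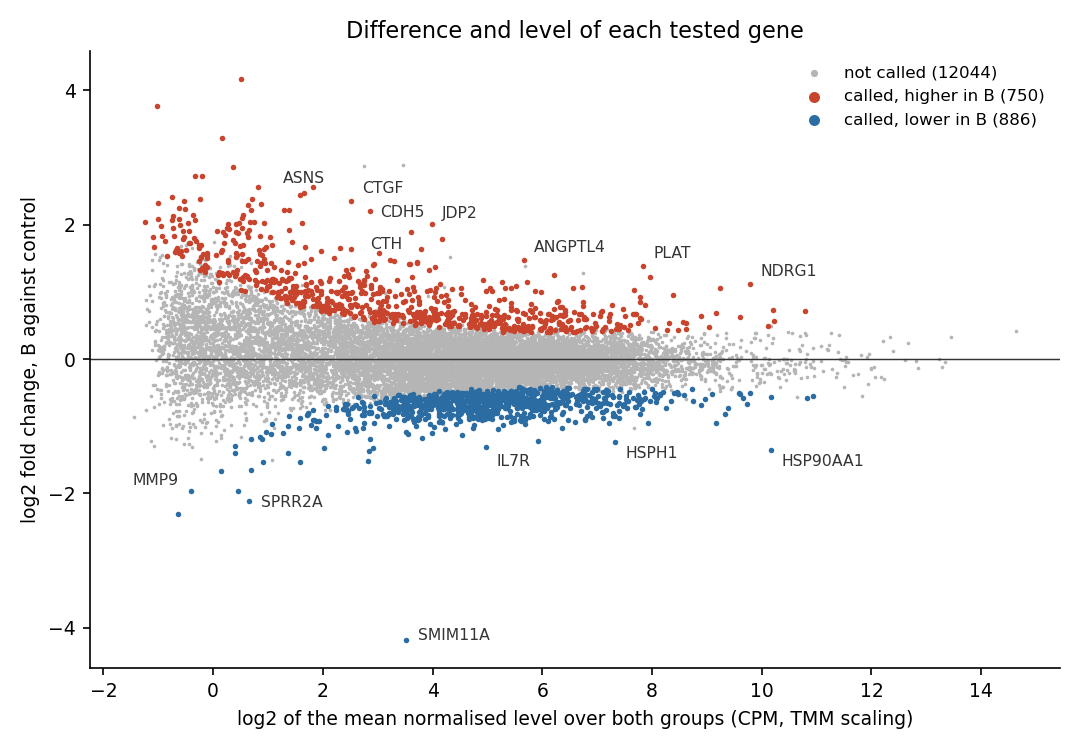
Log2 fold change of B against control (vertical axis) against the log2 of the mean level over both groups in CPM (horizontal axis) for each of the 13680 genes tested. Red points are the 750 genes called higher in B, blue points the 886 called lower and grey points the rest; most called genes lie within 1 log2 unit of 0, and SMIM11A stands alone at -4.18.

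Expression levels are given as CPM, the counts of a gene relative to the library's total, after TMM scaling, per library in the order Nc1, Nc2, Nc3 and then B1, B2, B3, and changes as log2 fold change ± standard error. Leading genes were taken from called protein-coding genes with a mean of at least 5 CPM and no overlap between the groups. Among these, the gene that rose most was CTGF (CCN2, ENSG00000118523, chromosome 6, 131948176 to 131951373, GRCh38), a matricellular protein and target of TGF-beta and YAP signalling. It stood at 2.15, 1.77 and 1.68 CPM in control and at 12.0, 9.14 and 7.69 CPM in B. The log2 fold change was 2.35 ± 0.23 (adjusted p = 3.08e-05). CDH5, the cadherin of endothelial junctions (chromosome 16, 66366622 to 66404786), stood at 2.95, 2.04 and 2.71 CPM in control and at 11.7, 13.1 and 10.9 CPM in B, a change of 2.21 ± 0.20 (adjusted p = 1.89e-05). PECAM1, another endothelial marker, had 15, 19 and 0 counts in control and 6, 7 and 22 in B, and VWF, KDR, TEK and CLDN5 had at most 4 counts in any library. In bulk RNA, more cells of a kind and more RNA per cell cannot be told apart. JDP2, a bZIP partner of JUN and ATF3 (chromosome 14, 75427716 to 75474111), stood at 5.27, 7.89 and 5.84 CPM against 28.5, 22.4 and 25.3 CPM, a change of 2.01 ± 0.18 (adjusted p = 1.89e-05). PLAT, the tissue plasminogen activator (chromosome 8, 42175233 to 42207724), had the tightest separation of these genes, at 125, 123 and 134 CPM in control and 331, 331 and 333 CPM in B. Its log2 fold change was 1.38 ± 0.13 (adjusted p = 1.89e-05).

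The other leading genes that rose were EPPK1, DAPK2, MDGA1, PABPC1L, LTB4R, WFDC3 and PPP1R3E, besides CTH, ANGPTL4, CHAC1 and ATF3, which are taken up with their groups. DAPK2, a calmodulin-regulated kinase tied to cell death and autophagy, had 77, 84 and 83 counts in control and 207, 207 and 310 in B. Its change was 1.48 ± 0.19 (adjusted p = 0.000371). For EPPK1, an epithelial plakin, B1 at 6.94 CPM lay much closer to the controls at 3.34, 3.62 and 5.30 CPM than did B2 and B3 at 14.5 and 14.9 CPM. The same shape was seen in PABPC1L, with 6.63 CPM in B1 and 14.3 and 12.5 CPM in B2 and B3, and in LTB4R, a leukotriene B4 receptor, with 4.67, 10.8 and 9.49 CPM. LTB4R was not called without Nc1 (adjusted p = 0.0685). Large changes also occurred below 5 CPM, where STC1 and FLNC are named after their values were seen. STC1, the secreted hormone stanniocalcin, had 15, 10 and 23 counts in control and 74, 105 and 103 in B (2.47 ± 0.28, adjusted p = 0.00019). FLNC, a filamin that crosslinks actin, had 0, 4 and 3 counts in control and 46, 46 and 48 in B.

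The gene that fell most was SMIM11A (ENSG00000205670, chromosome 21, 34375480 to 34407866), which encodes a small membrane protein. It had 287, 397 and 375 counts in control and 19, 21 and 22 in B. The log2 fold change was -4.18 ± 0.23 (adjusted p = 3.17e-08), or 18.1-fold lower. Its annotated copy SMIM11B had 0 or 1 count in every library. How the authors handled reads that match close copies is not known, and how they were divided was not tested. Of the other leading genes that fell, IL7R, the interleukin 7 receptor chain (chromosome 5, 35852695 to 35879603), stood at 51.7, 40.9 and 41.6 CPM in control and 18.2, 22.8 and 13.4 CPM in B. Its change was -1.31 ± 0.18 (adjusted p = 0.000665). TAGLN, a smooth muscle actin-binding protein, fell from 7.14, 12.8 and 10.5 CPM to 5.87, 3.48 and 3.98 CPM, with B1 closest to the controls. SEMA3D, AMTN, TUBD1 and MRPL1 fell by 1.17, 1.08, 1.07 and 1.11 on the log2 scale. HSP90AA1, HSPH1 and CHORDC1 belong to the chaperone group, UTP20 and PAK1IP1 to ribosome assembly, HMMR and CENPE to mitosis and GPAM to lipid synthesis.

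Genes of the ATF4 response rose together. Of 14 genes tested from the list, 12 were called higher and 0 lower, with a median log2 fold change of 0.95, where 5.48% of all genes were called higher. ASNS, which makes asparagine (ENSG00000070669, chromosome 7, 97852118 to 97872542), stood at 0.85, 0.92 and 1.02 CPM in control and at 3.41, 5.31 and 6.41 CPM in B. The groups did not overlap, and the log2 fold change was 2.44 ± 0.30 (adjusted p = 0.000275). CHAC1, which degrades glutathione (chromosome 15, 40952962 to 40956519), stood at 6.46, 7.62 and 7.28 CPM against 21.5, 16.5 and 19.4 CPM (1.42 ± 0.17, adjusted p = 0.000211). ATF3, a stress-induced bZIP factor (chromosome 1, 212565334 to 212620777), stood at 9.01, 10.1 and 8.54 CPM against 22.3, 22.4 and 26.3 CPM (1.37 ± 0.16, adjusted p = 0.00019). PSAT1 and PHGDH, enzymes of serine synthesis, rose by 1.22 ± 0.14 and 0.96 ± 0.14. SESN2, an inhibitor of mTORC1, rose by 1.00 ± 0.15 and DDIT4, another, by 0.64 ± 0.13. The mRNA of ATF4 itself stood at 323, 422 and 380 CPM in control and 644, 522 and 580 CPM in B, a change of 0.64 ± 0.14 (adjusted p = 0.0116), and was not called without Nc3 (adjusted p = 0.054) or without B3 (adjusted p = 0.0543). Not called were CEBPB, a bZIP partner of ATF4, at 0.09 ± 0.14 and PPP1R15A, the phosphatase subunit that reverses the block on translation, at -0.21 ± 0.13. The 7 genes ATF3, ASNS, CHAC1, SESN2, DDIT4, PSAT1 and PHGDH were called in each fit with 1 library left out. The count of 12 was 7 without B3, 8 without Nc3, and 3, with a median of 0.76, without the globin libraries.

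Sequence upstream of these genes is shown because ATF4 is known to bind composite elements that hold the letters TGATGNAA. Both strands of the 250 bases before each RefSeq start (GRCh38.p14) were searched, and the letters were found for 3.89% of 27305 genes in the promoter table. Of the 13 ATF4 list genes in that table, 3 held them, and so did JDP2 among the 11 leading higher genes that were in it. IL7R, 1 of the 14 leading lower genes in the table, held them too. Letters that match on either strand are in capitals, and each line reads 5′ to 3′ on the strand of the gene.
CHAC1, chr15:40953251-40953280, plus strand: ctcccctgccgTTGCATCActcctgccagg
ATF3, chr1:212565205-212565234, plus strand: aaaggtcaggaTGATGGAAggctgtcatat
ASNS, chr7:97872458-97872487, minus strand: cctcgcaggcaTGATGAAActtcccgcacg
JDP2, chr14:75427995-75428021, plus strand: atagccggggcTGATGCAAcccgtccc
Where a gene has several RefSeq starts, the outermost start with a match on the 5′ side is shown. RefSeq starts can differ from the gene bounds given above, and the stretches of CHAC1, ASNS and JDP2 lie inside those bounds. For JDP2 the bases after the start were found in no GENCODE transcript of the gene, unlike those of CHAC1, ATF3 and ASNS. In CHAC1 the capitals are the element read on the opposite strand. A match of letters is a description of the sequence, and binding was not measured.

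Genes that act beside ATF4 in amino acid supply changed in part. CTH, which makes cysteine from cystathionine (ENSG00000116761, chromosome 1, 70411218 to 70439851), stood at 4.87, 5.26 and 5.48 CPM in control and at 17.1, 17.9 and 22.9 CPM in B (1.89 ± 0.18, adjusted p = 2.07e-05). The enzyme of the preceding step, CBS, has a near-identical copy CBSL, and together they had 9, 4 and 6 counts in control and 53, 52 and 54 in B; how reads were divided between the copies is uncertain. Of 12 cytosolic aminoacyl-tRNA synthetases, which charge tRNAs with amino acids, 5 were called higher and 0 lower, with a median of 0.38. Over all genes, 5.48% were called higher and 6.48% lower. CARS stood at 40.2, 37.1 and 39.4 CPM in control and 67.7, 80.6 and 87.1 CPM in B (1.01 ± 0.13, adjusted p = 0.000523), and WARS rose by 0.75 ± 0.13. AARS and SARS rose by 0.54 and 0.61, and the count of 5 was 2 without Nc3 and 2 without B3. The other 7 were not called. With offsets for GC content and length, 5 synthetases were called higher and 4 lower. Over all 13671 genes in that fit, 1460 were called higher and 1546 lower. Of 9 amino acid transporters, 3 were called higher. SLC1A4, a carrier of serine and alanine, stood at 29.9, 30.4 and 27.8 CPM against 64.4, 59.0 and 63.7 CPM (1.09 ± 0.13, adjusted p = 0.000211), and SLC6A9, the glycine carrier, rose by 1.01 ± 0.16. SLC7A11, the cystine carrier, stood at 34.2, 23.3 and 24.2 CPM against 30.1, 37.7 and 28.1 CPM, so that the groups overlapped (0.23 ± 0.17, adjusted p = 0.412).

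**Figure D2:**
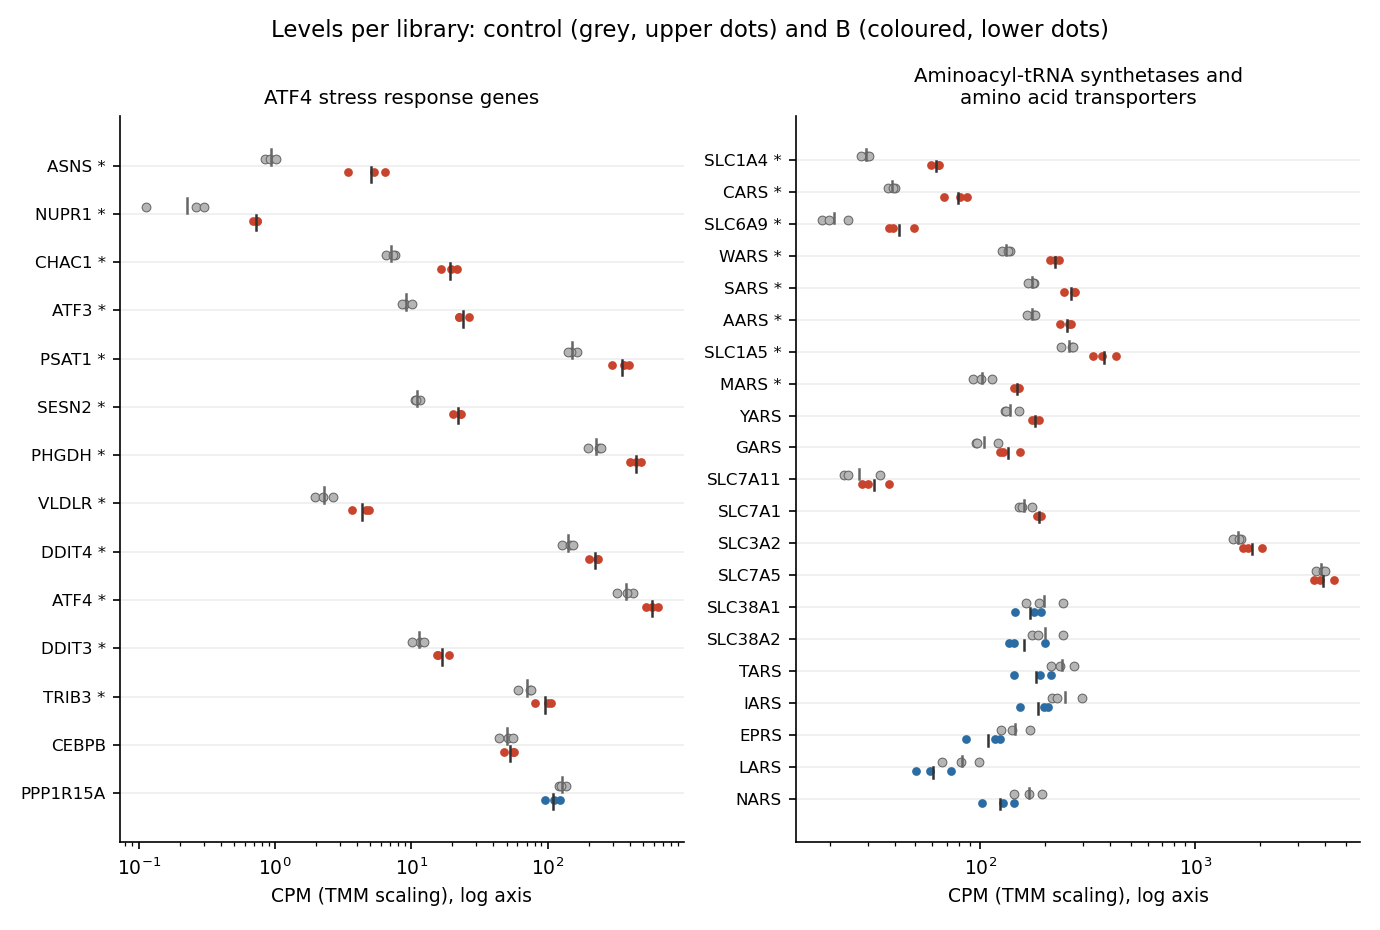
Level of each tested member in each library, in CPM on a log axis, for ATF4 response genes (left) and for aminoacyl-tRNA synthetases and amino acid transporters (right). Grey upper dots are the 3 control libraries, coloured lower dots the 3 B libraries (red where the log2 fold change is above 0, blue below), vertical ticks the group means and stars mark called genes; 12 of the 14 ATF4 response genes carry a star, all with B to the right.

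Targets of HIF-1 gave calls in 1 direction. Of 16 hypoxia-inducible genes tested, 9 were called higher and 0 lower, where 5.48% of all genes were called higher, and the median was 0.71. In 13 of them every B library lay above every control library, as in 16.5% of all genes. ANGPTL4, a secreted inhibitor of lipoprotein lipase (ENSG00000167772, chromosome 19, 8363289 to 8374373), stood at 23.3, 29.1 and 27.9 CPM in control and at 85.8, 67.7 and 69.8 CPM in B. The change was 1.48 ± 0.15 (adjusted p = 3.08e-05). NDRG1, a stress-responsive differentiation gene (chromosome 8, 133237171 to 133302022), stood at 544, 544 and 584 CPM against 1271, 1061 and 1295 CPM (1.12 ± 0.14, adjusted p = 0.000358). VEGFA, the endothelial growth factor, stood at 62.5, 62.5 and 59.8 CPM against 98.5, 136 and 149 CPM (1.06 ± 0.15, adjusted p = 0.000859). In VEGFA the controls lay within a few CPM of each other while B1 was lower than B2 and B3. PDK1, which keeps pyruvate out of mitochondria, had the same order, at 14.8, 11.9 and 12.2 CPM in control and 18, 29.4 and 27.6 CPM in B (0.95 ± 0.19). BNIP3, a mitophagy receptor, rose by 0.74 ± 0.12 and EGLN3, an oxygen-sensing prolyl hydroxylase, by 0.73 ± 0.13. CA9, a carbonic anhydrase used as a hypoxia marker, stood at 0.227, 0.0657 and 0.361 CPM against 0.883, 0.685 and 0.636 CPM and was not called (adjusted p = 0.0575). KDM3A and P4HA1 had changes of -0.01 ± 0.16 and 0.06 ± 0.15. The 6 genes VEGFA, NDRG1, BNIP3, EGLN3, PDK1 and ANGPTL4 were called in each fit with 1 library left out, and without the globin libraries 1 was called, at a median of 0.72.

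Of 20 glycolysis enzymes and glucose transporters tested, 5 were called higher and 1 lower, with a median of 0.32. Among the higher calls, SLC2A1 and PFKFB4 are also counted with the hypoxia-inducible genes above. Over all genes, 5.48% were called higher and 6.48% lower. ALDOC, an aldolase of nervous tissue, stood at 18.8, 22.3 and 23.1 CPM in control and 43.8, 41.8 and 47.4 CPM in B (1.05 ± 0.14, adjusted p = 0.000531), and ENO2, the neuronal enolase, at 11.3, 10.1 and 11.1 CPM against 23.7, 18.2 and 25.7 CPM (1.05 ± 0.17). PGK1, which makes ATP in the pathway, stood at 850, 968 and 850 CPM against 1393, 1468 and 1554 CPM (0.73 ± 0.14, adjusted p = 0.00455). These 3 genes were called in each fit with 1 library left out, and the count of 5 was 3 without Nc3, 3 without B3 and 0 without the globin libraries. GAPDH and LDHA, at 0.32 ± 0.17 and 0.35 ± 0.16, were not called, and their groups overlapped. LDHB, the lactate dehydrogenase chain of aerobic tissue, fell by 0.49 ± 0.13 (adjusted p = 0.0289) and was not called without Nc3, B1 or B3 (adjusted p between 0.0695 and 0.163).

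**Figure D3:**
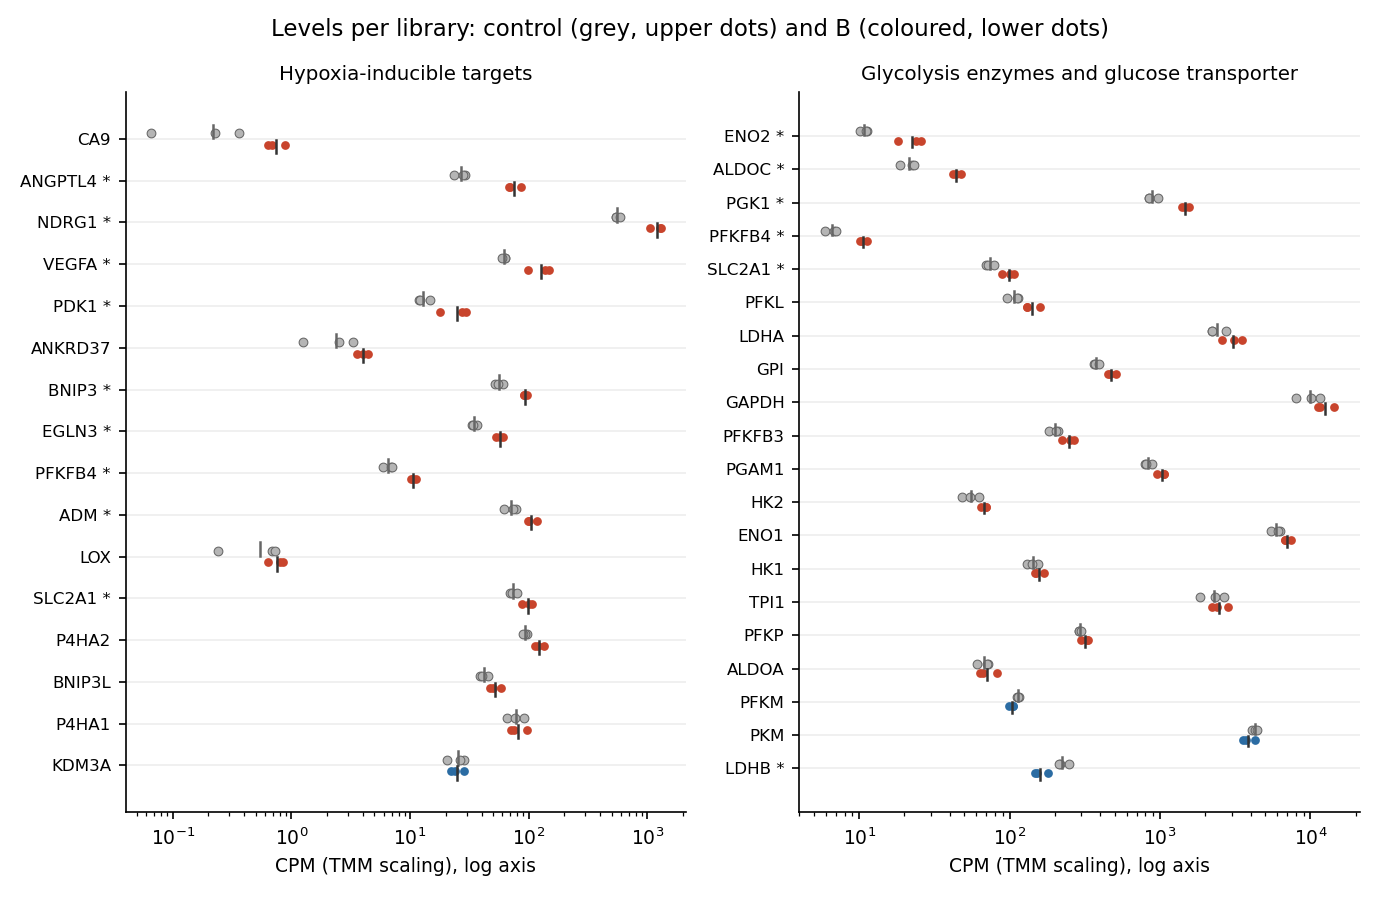
Level of each tested member in each library, in CPM on a log axis, for hypoxia-inducible genes (left) and glycolysis genes (right), with grey upper dots for control, coloured lower dots for B, ticks at the group means and stars on called genes. B lies to the right of control in 13 of 16 hypoxia-inducible genes with no overlap, and LDHB at the foot of the right panel carries the 1 star with B to the left.

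Heat shock chaperones fell. Of 14 tested, 8 were called lower and 0 higher, where 6.48% of all genes were called lower, and the median was -0.65. HSP90AA1, the stress-inducible cytosolic HSP90 (ENSG00000080824, chromosome 14, 102080738 to 102139699), stood at 1909, 1459 and 1591 CPM in control and at 712, 743 and 496 CPM in B. The log2 fold change was -1.35 ± 0.17 (adjusted p = 0.00038). HSPH1, an HSP110 that recycles HSP70 (chromosome 13, 31134974 to 31162388), stood at 270, 194 and 209 CPM against 111, 96.0 and 80.1 CPM (-1.23 ± 0.16, adjusted p = 0.000405). CHORDC1, a co-chaperone of HSP90 from outside the list, stood at 98.3, 73.1 and 81.4 CPM against 36.9, 43.1 and 28.9 CPM (-1.22 ± 0.16, adjusted p = 0.000496). HSPA1A, the inducible HSP70, stood at 207, 193 and 187 CPM against 115, 87.0 and 101 CPM (-0.95 ± 0.14), and its near-identical copy HSPA1B at 142, 136 and 145 CPM against 93.7, 79.5 and 84.3 CPM (-0.71 ± 0.13). Counts may have been exchanged within this pair, and both fell. HSPD1, the mitochondrial chaperonin, fell by 0.95 ± 0.17, DNAJA1 by 0.80 ± 0.15 and HSPA4 by 0.79 ± 0.15. HSPB8, BAG3 and DNAJB1, a small heat shock protein and co-chaperones of HSP70, were not called, at 0.03, -0.26 and -0.14, and HSPA8, the constitutive HSC70, stood at 2310, 1678 and 1738 CPM against 977, 1611 and 1288 CPM (-0.56 ± 0.18, adjusted p = 0.0552). The count of 8 lay between 7 and 10 with 1 library left out, was 13 with offsets for GC content and length, and was 0 without the globin libraries, where the median was -0.51. With the offsets for GC content and length, 1546 of all 13671 genes were called lower. Per length, HSP90AA1 stood at 311 ± 45.2 FPKM in control and 121 ± 23.9 FPKM in B (SD, n = 3), and HSP90AB1, its constitutive counterpart, at 720.5 and 477.8 FPKM.

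Upstream letters of chaperone genes are shown because HSF1 is known to bind inverted repeats that hold GAANNTTC. These letters, which read the same on both strands, were found in the 250 bases before a RefSeq start for 7.05% of 27305 genes, and for 10 of the 14 chaperone genes. Genes with the letters include DNAJB1 and HSPB8, which were not called, and HSPH1, which was called, had none in this window.
HSP90AA1, chr14:102087109-102087138, minus strand: gggttcttccgGAAGGTTCgggaggcttct
HSPA1A, chr6:31815426-31815455, plus strand: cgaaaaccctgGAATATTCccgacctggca
DNAJA1, chr9:33025064-33025093, plus strand: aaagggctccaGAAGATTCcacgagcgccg
The 3 genes shown were called lower in each fit with 1 library left out. The HSP90AA1 stretch precedes a RefSeq start that lies inside the gene bounds given above. Of the leading lower genes outside the list, CHORDC1 held the letters as well.

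Ribosome biogenesis genes fell as well. Of 17 tested, 10 were called lower and 0 higher, where 6.48% of all genes were called lower. The median was -0.52 and all 17 had a negative fold change, where the median over all genes tested was -0.002. UTP20, a scaffold of the small subunit processome (ENSG00000120800, chromosome 12, 101280109 to 101386616), stood at 57.0, 40.9 and 49.4 CPM in control and 25.9, 25.0 and 21.2 CPM in B (-1.03 ± 0.15, adjusted p = 0.00103). NOP58, a core protein of the snoRNPs that methylate rRNA, stood at 82.0, 61.5 and 66.4 CPM against 39.8, 43.9 and 32.2 CPM (-0.86 ± 0.15, adjusted p = 0.00336). Nucleolin (NCL) and nucleophosmin (NPM1), abundant nucleolar proteins, fell by 0.73 ± 0.15 and 0.66 ± 0.15, and the pseudouridine synthase DKC1 by 0.65 ± 0.13. FBL and NOP56, at -0.10 and -0.07, were not called. UTP20 and NOP58 were called in each fit with 1 library left out, whereas the count of 10 was 5 without Nc3 and 2 without B3 and NCL, NPM1 and DKC1 were not called without B3 (adjusted p = 0.0725, 0.0931 and 0.056). With offsets for GC content and length, 14 of the 17 were called lower, where 1546 of all 13671 genes were. Of 45 ribosomal protein genes of the large subunit, 37 had a negative fold change, the median was -0.12 and 1 was called, RPL7, which fell by 0.57 ± 0.15 and was not called without Nc3 or B3 (adjusted p = 0.0667 and 0.177). Of 31 of the small subunit, 23 were negative, the median was -0.15 and 0 were called in either direction by edgeR. Of these 31, 2 had an unadjusted p under 0.05, where 3781 of all 13680 genes did, and DESeq2 called 1. Without Nc1, 6 of the large and 8 of the small subunit genes were called lower, and without Nc2 the medians were 0.03 and 0.05.

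**Figure D4:**
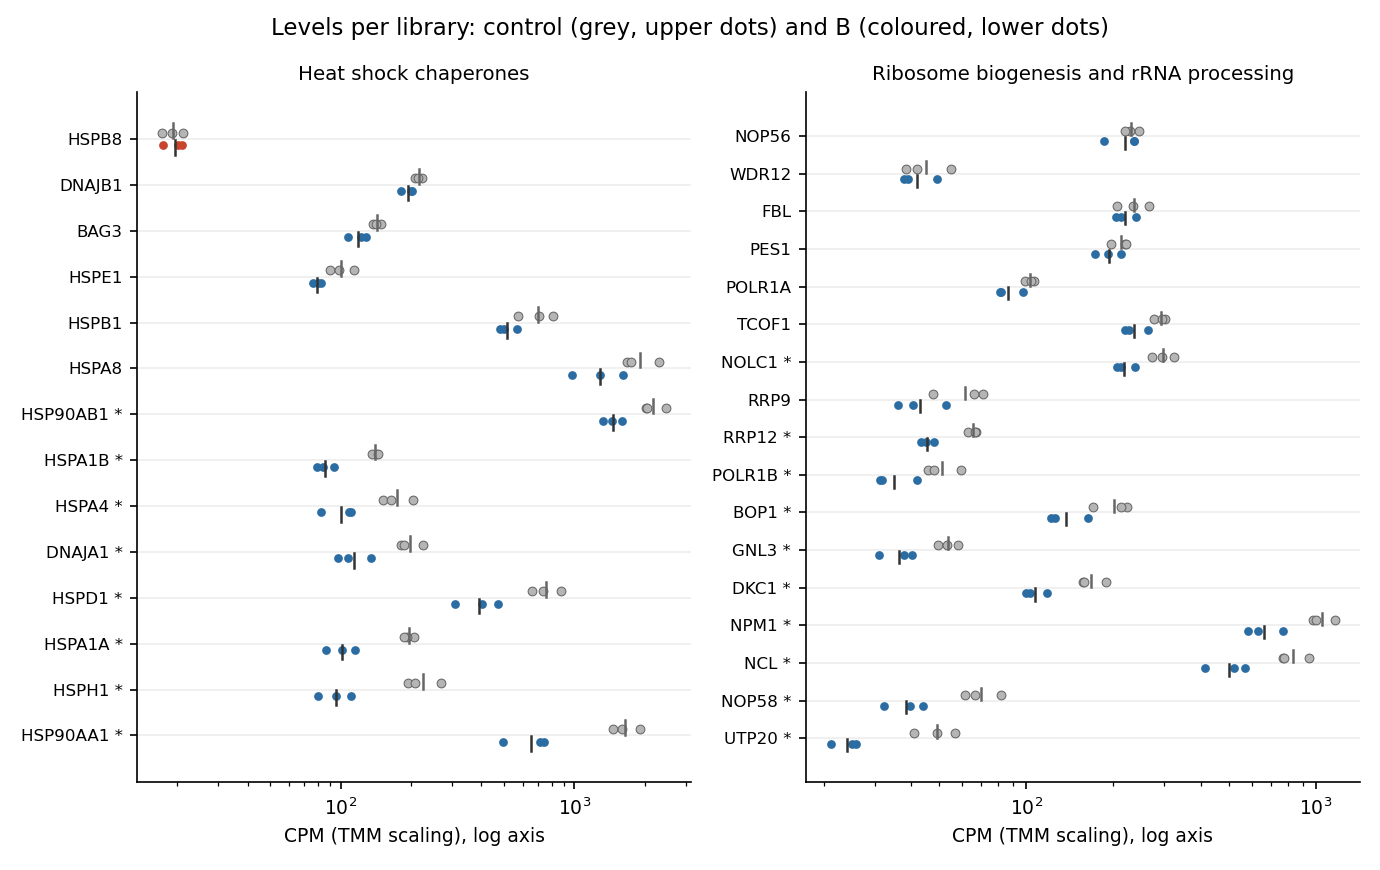
Level of each tested member in each library, in CPM on a log axis, for heat shock chaperones (left) and ribosome biogenesis genes (right), with grey upper dots for control, coloured lower dots for B, ticks at the group means and stars on called genes. The 8 called chaperones and 10 called ribosome biogenesis genes all have B to the left, and HSPB8 at the top left shows no separation.

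Of 24 mitosis genes tested, 9 were called lower and 0 higher, where 6.48% of all genes were called lower. The median was -0.31. CENPE, a kinesin of the kinetochore (chromosome 4, 103105806 to 103198409), stood at 22.9, 21.2 and 21.2 CPM in control and 10.2, 12.0 and 8.43 CPM in B (-1.10 ± 0.17, adjusted p = 0.00124). TTK, a kinase of the spindle checkpoint, stood at 46.0, 36.2 and 38.6 CPM against 20.8, 25.6 and 18.7 CPM (-0.89 ± 0.16, adjusted p = 0.0032), and HMMR, which binds hyaluronan and spindles and is no member of the list, fell by 1.13 ± 0.19. BUB1 and TOP2A fell by 0.74 ± 0.16 and 0.71 ± 0.16 but were not called without B3 (adjusted p = 0.0571 and 0.0725). MKI67, the proliferation marker, was not called at -0.35 ± 0.14 (adjusted p = 0.124), and cyclin B1 (CCNB1) stood at 267, 250 and 232 CPM against 197, 280 and 257 CPM (-0.03 ± 0.15). The count of 9 was 5 without Nc3, 2 without B3 and 0 without the globin libraries, with a median of -0.19 there, and 12 with offsets for GC content and length. With these offsets, 1546 of all 13671 genes were called lower. Of 26 DNA replication genes 3 were called lower, MCM10, RRM1 and PRIM1, and 0 without B3 (adjusted p between 0.0847 and 0.164). PCNA, the clamp of the replication fork, had a change of 0.18 ± 0.14. Of 17 G1 genes, CDK6 and RB1 fell by 0.78 ± 0.15 and 0.67 ± 0.14 and the inhibitor CDKN2B rose by 0.67 ± 0.16, of which CDK6 alone was called in each fit with 1 library left out, while RB1 was not called without B3 (adjusted p = 0.0539) nor CDKN2B without Nc3 or B3 (adjusted p = 0.0715 and 0.101). CDKN1A (p21) stood at 86.8, 119 and 116 CPM against 120, 86.1 and 109 CPM (adjusted p = 0.936). Of 18 mitosis genes in the promoter table, 10 held the cell cycle homology letters TTTGAA and 16 the letters CCAAT, on either strand, against 16.1% and 37.0% of all genes in it. CENPE was not among either.

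The proteasome list had 6 of 26 genes called lower and 0 higher, where 6.48% of all genes were called lower. The median was -0.12. PSMC6, an ATPase of the regulatory particle, fell by 0.82 ± 0.16 (adjusted p = 0.00538), from 80.7, 61.9 and 66.8 CPM to 37.8, 48.9 and 32.1 CPM, and was the 1 member called in every fit with 1 library left out; the count of 6 was 1 without B3. In the endoplasmic reticulum list of 18 genes, 3 were called higher and 3 lower, and the median was 0.03. XBP1, the transcription factor spliced by IRE1, stood at 105, 125 and 110 CPM in control and 186, 194 and 211 CPM in B (0.80 ± 0.13, adjusted p = 0.00227), and HERPUD1, a part of ER-associated degradation, rose by 0.66 ± 0.13. HSP90B1, the HSP90 of the endoplasmic reticulum, stood at 438, 336 and 368 CPM against 250, 254 and 185 CPM (-0.73 ± 0.15, adjusted p = 0.00794) and was not called without B3 (adjusted p = 0.0672). HSPA5, the BiP chaperone, was not called, at -0.16 ± 0.14. Of 20 p53 targets, 3 were called higher, where 5.48% of all genes were called higher. These were SESN2, GDF15 and PMAIP1, of which the latter pair was not called without Nc3 (adjusted p = 0.0999 and 0.149) or without B3 (adjusted p = 0.0928 and 0.202), among others.

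In the heme pathway, ALAS1, the synthase that makes 5-aminolevulinic acid in cells other than red cell precursors (ENSG00000023330, chromosome 3, 52198086 to 52214327), stood at 43.7, 44.0 and 45.7 CPM in control and 62.8, 57.9 and 67.6 CPM in B. All B libraries lay above all controls, with a change of 0.50 ± 0.13 (adjusted p = 0.02), and the gene was not called without Nc3 (adjusted p = 0.0776) or B3 (adjusted p = 0.134). None of the other enzymes reported was called: ALAD changed by 0.25 ± 0.13, UROS by 0.29 ± 0.14, UROD by -0.31 ± 0.17, CPOX by 0.13 ± 0.14, PPOX by 0.19 ± 0.18 and FECH, which turns protoporphyrin IX into heme, by 0.25 ± 0.14. With offsets for GC content and length, 2 of 9 heme enzymes were called higher and 2 lower. Over all 13671 genes in that fit, 1460 were called higher and 1546 lower. Without Nc1, 1 heme enzyme was called higher and 2 lower. ALAS2, the red cell synthase, had 19 and 16 counts in Nc1 and Nc2, 23 in B3 and at most 2 in the others, which are the libraries with and without globin counts. HMOX1, the inducible heme oxygenase, stood at 5.78, 5.78 and 6.68 CPM in control and 5.81, 5.54 and 5.46 CPM in B, so that the groups overlapped (-0.12 ± 0.18, adjusted p = 0.718). Of 9 genes of iron storage and uptake, 0 were called by edgeR, 4 had an unadjusted p under 0.05 and DESeq2 called 2. Over all genes tested, 3781 of 13680 had an unadjusted p under 0.05. The ferritin chain FTH1 stood at 1207, 1427 and 1267 CPM against 1749, 1678 and 1691 CPM, with no overlap (0.39 ± 0.14, adjusted p = 0.0749), and the transferrin receptor TFRC at 849, 594 and 657 CPM against 520, 609 and 385 CPM. With offsets for GC content and length, 4 of these 9 genes were called higher, where 1460 of all 13671 genes were.

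The list of NRF2 targets of the thioredoxin and glutathione systems did not hold the AKR1C genes given below. Of its 16 genes tested, 0 were called by edgeR in either direction, with a median of 0.11. Of these, 2 had an unadjusted p under 0.05, where 3781 of all 13680 genes did, and DESeq2 and limma called 0. With offsets for GC content and length, 2 were called higher, where 1460 of all 13671 genes were called higher and 1546 lower. NQO1, a quinone reductase, stood at 431, 628 and 514 CPM in control and 644, 578 and 630 CPM in B (0.24 ± 0.15), and TXNRD1, thioredoxin reductase, changed by 0.002 ± 0.15. In the list of NADPH supply and aldo-keto reductases, 4 of 10 genes were called higher, where 5.48% of all genes were. In this list 0 were called lower and 6 were not called. The 4 were IDH1, which makes NADPH from isocitrate, and 3 AKR1C genes, whose enzymes reduce lipid aldehydes and steroids. AKR1C1 (ENSG00000187134, chromosome 10, 4963253 to 4983283) stood at 58.9, 78.6 and 67.9 CPM against 132, 141 and 157 CPM (1.07 ± 0.14, adjusted p = 0.000473), AKR1C2 at 328, 448 and 401 CPM against 771, 798 and 873 CPM (1.05 ± 0.15, adjusted p = 0.000717), and AKR1C3 at 54.3, 58.8 and 52.2 CPM against 91.0, 106 and 104 CPM (0.86 ± 0.13, adjusted p = 0.00101). These genes are close copies on 1 chromosome, so they may have exchanged reads and are not independent of each other. The 3 AKR1C genes were called in each fit with 1 library left out. IDH1 rose by 0.49 ± 0.15 (adjusted p = 0.0456) and was not called without Nc2, Nc3, B2 or B3 (adjusted p between 0.0848 and 0.225). AKR1B1, another aldo-keto reductase, was not called (0.23 ± 0.14). None of 11 superoxide dismutases, catalase and peroxidases and none of 4 metallothioneins tested was called by edgeR; 2 members of either list had an unadjusted p under 0.05, and DESeq2 and limma called 0. With offsets for GC content and length, 2 members of the first list were called higher and 1 lower, and 2 metallothioneins were called lower. Without Nc1, 1 of the first list was called higher and 1 lower, and 2 metallothioneins lower, and without B1, 1 of the first list was called higher.

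Among 8 AP-1 subunits tested, 5 were called higher and 1 lower, where 5.48% of all genes were called higher and 6.48% lower. The median was 0.47. Besides ATF3, JUND stood at 34.5, 42.1 and 43.1 CPM in control and 75.8, 51.5 and 63.4 CPM in B (0.67 ± 0.15, adjusted p = 0.0125). JUN and FOSB rose by 0.49 and 0.86, and FOSL1, the FRA-1 subunit, fell from 134, 142 and 139 CPM to 101, 76.4 and 89.2 CPM (-0.64 ± 0.13, adjusted p = 0.0079). The count of 5 was 2 without Nc3 and 2 without B3, and ATF3, JUND and FOSL1 were called in each fit with 1 library left out. FOS and JUNB were not called, at 0.37 ± 0.20 and 0.03 ± 0.14. CYR61 (CCN1), the close relative of CTGF, stood at 75.3, 67.4 and 67.5 CPM against 82.2, 78.6 and 81.2 CPM and was not called (0.20 ± 0.12).

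Genes of the keratinocyte surface and cytoskeleton changed by less than 2-fold in the main. Laminin and integrin genes of the hemidesmosome list gave 0 higher and 3 lower calls among 13, where 6.48% of all genes were called lower. LAMA3, a laminin alpha chain, and ITGA6, an integrin alpha chain, fell by 0.50 ± 0.14 and 0.58 ± 0.15, and neither was called without Nc3 (adjusted p = 0.0843 and 0.0566) or B3 (adjusted p = 0.214 and 0.173). In the desmosome list of 10, DSP and DSC3 were called lower, and neither was called without Nc3 or B3. Of 6 epidermal and stress keratins, 0 were called higher and 3 lower, with a median of -0.67, and of 8 keratins of simple and mucosal epithelia 1 was called higher and 1 lower. KRT15, a keratin of basal and hair follicle stem cells (ENSG00000171346, chromosome 17, 41513743 to 41522529), rose from 113, 138 and 152 CPM to 289, 252 and 281 CPM (1.03 ± 0.14, adjusted p = 0.000665). KRT6A, a keratin of wounded epidermis, fell from 143, 139 and 151 CPM to 91.2, 78.1 and 71.1 CPM (-0.85 ± 0.13, adjusted p = 0.00168), with the reservation that KRT6 genes are close copies. KRT5 fell by 0.48 ± 0.13 and was not called without Nc3 or B3 (adjusted p = 0.135 and 0.207), so that the count of 3 was 2 without Nc3 and 1 without B3. KRT17, a stress keratin, fell by 1.40 ± 0.36 and was not called without Nc1 or B3 (adjusted p = 0.0861 and 0.0945). Its log2 fold change depended on the setting and lay between -1.56 and -0.44 over the 20 other settings. KRT8, of simple epithelia, fell by 0.55 ± 0.15 and was not called without Nc2, Nc3, B2 or B3 (adjusted p between 0.0505 and 0.193). Of cornification genes, PPL, the plakin periplakin, rose by 0.70 ± 0.12 (adjusted p = 0.0032) and SPRR2A, a cornified envelope precursor, fell from 2.55, 2.17 and 2.95 CPM to 0.379, 0.343 and 1.01 CPM (-2.11 ± 0.39, adjusted p = 0.00425), with a log2 fold change of -2.81 without B3. IVL, involucrin, was not called. The epithelial transcription factor ELF3 stood at 136, 161 and 173 CPM against 311, 266 and 273 CPM (0.86 ± 0.14, adjusted p = 0.00208).

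Of 13 matrix metalloproteinases and their inhibitors, 3 were called higher and 1 lower. Of 18 structural and matricellular matrix genes 2 were called higher (CTGF and COL5A1) and 1 lower. Over all genes, 5.48% were called higher and 6.48% lower. TIMP3, an inhibitor of metalloproteinases held in the matrix, stood at 156, 145 and 155 CPM in control and 286, 274 and 309 CPM in B (0.93 ± 0.13, adjusted p = 0.000665), and MMP28, the epidermal epilysin, rose by 0.76 ± 0.16. MMP9, a gelatinase, stood at 1.13, 1.18 and 1.32 CPM against 0.126, 0.343 and 0.424 CPM (-1.97 ± 0.46, adjusted p = 0.0136) and was not called without Nc3 (adjusted p = 0.0548). MMP1, a collagenase, rose by 1.19 ± 0.37 (adjusted p = 0.0454) and was not called without Nc1, Nc2, B1, B2 or B3 (adjusted p between 0.0642 and 0.145). COL5A1, a collagen chain, rose by 0.63 ± 0.15 and was not called without Nc3 or B3 (adjusted p = 0.0951 and 0.0738). The member called lower was TNC, tenascin C, which is laid down in wounds, and it was called in each fit with 1 library left out. FN1 and THBS1, matrix proteins of wounds, were not called, at 0.003 and -0.02. IGFBP3, a binding protein of insulin-like growth factors, stood at 1295, 1341 and 1365 CPM against 2127, 2081 and 2396 CPM (0.72 ± 0.14, adjusted p = 0.00484). Vimentin (VIM) rose by 1.01 ± 0.22 from 3.29, 5.26 and 4.57 CPM to 6.69, 9.31 and 10.3 CPM and was not called without B3 (adjusted p = 0.0507).

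Of 7 chemokines tested, 1 was called higher and 1 lower, of 13 interleukins and receptors 2 and 0, and of 15 NF-kappaB feedback genes and inflammatory mediators 2 and 0, where 5.48% of all genes were called higher and 6.48% lower. The interleukin list had 0 calls without Nc3 and 0 without B3. The monocyte chemokine CCL2 stood at 140, 205 and 165 CPM in control and 277, 294 and 320 CPM in B (0.80 ± 0.15, adjusted p = 0.00422). CCL5 stood at 2.72, 3.75 and 1.93 CPM against 0.442, 0.685 and 1.70 CPM (-1.53 ± 0.41, adjusted p = 0.0254), was not called without Nc2, B1 or B2 (adjusted p between 0.0603 and 0.069) and fell by 2.28 without B3. Without B3, the libraries with high globin and leukocyte counts are Nc1 and Nc2, both of them control. Whether this bears on the change of CCL5 was not tested. PTGES, which makes prostaglandin E2, stood at 368, 498 and 457 CPM against 828, 648 and 654 CPM (0.69 ± 0.15, adjusted p = 0.0107). IL1B, CXCL8 and IL6 were not called, at 0.18 ± 0.14, -0.41 ± 0.17 and -0.21 ± 0.40. Of 25 interferon-stimulated genes, 1 was called higher and 3 lower, and the median was -0.20. IFITM1, which blocks virus entry, rose by 0.58 ± 0.14, while DDX58 (RIG-I), a sensor of viral RNA, and ISG15, a ubiquitin-like modifier, fell by 0.72 ± 0.19 and 0.67 ± 0.18. None of these was called without B3 (adjusted p between 0.0627 and 0.162) or without Nc3 (adjusted p between 0.0629 and 0.0738).

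Of 12 fatty acid genes, 1 was called higher and 3 lower, with a median of -0.13, where 12% of all genes were called in either direction. GPAM, which starts triglyceride synthesis, stood at 18.9, 14.7 and 12.8 CPM in control and 7.76, 7.99 and 6.2 CPM in B (-1.08 ± 0.19, adjusted p = 0.0032), and the elongase ELOVL6 fell by 0.77 ± 0.16. ACSS2, which makes acetyl-CoA from acetate, rose by 0.47 ± 0.13 (adjusted p = 0.0321) and was not called without Nc1, Nc3, B1, B2 or B3 (adjusted p between 0.0535 and 0.116). FASN, the fatty acid synthase, fell by 0.54 ± 0.13 and was not called without Nc3 or B3 (adjusted p = 0.0833 and 0.123). Of 23 cholesterol synthesis genes, 2 were called lower and 0 higher, where 6.48% of all genes were called lower. The median was -0.10. HMGCS1, an early enzyme of the pathway, fell by 0.50 and was not called without Nc3 (adjusted p = 0.101) or B3 (adjusted p = 0.223), among others. Of 21 autophagy genes, 2 were called higher and 3 lower (TAX1BP1, ATG3 and ATG5), and the 3 became 1 without Nc1, Nc3 or B1 and 0 without B3. ULK1, the kinase that starts autophagy, stood at 9.86, 11.2 and 12.2 CPM against 26.1, 22.4 and 23.2 CPM (1.11 ± 0.16, adjusted p = 0.000753), and GABARAPL1, a protein conjugated to autophagosome membranes, rose by 0.85 ± 0.13. SQSTM1, the p62 receptor, was higher in every B library but was not called (0.29 ± 0.14, adjusted p = 0.193). Of 19 nuclear respiratory chain genes 0 were called by edgeR and DESeq2 called 1. An unadjusted p under 0.05 was seen in 2, where 3781 of all 13680 genes had one. Of 13 genes of the mitochondrial genome 1 was called, MT-ND3, which fell by 0.51 ± 0.14 and was not called without Nc2, Nc3 or B3.

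**Figure D5:**
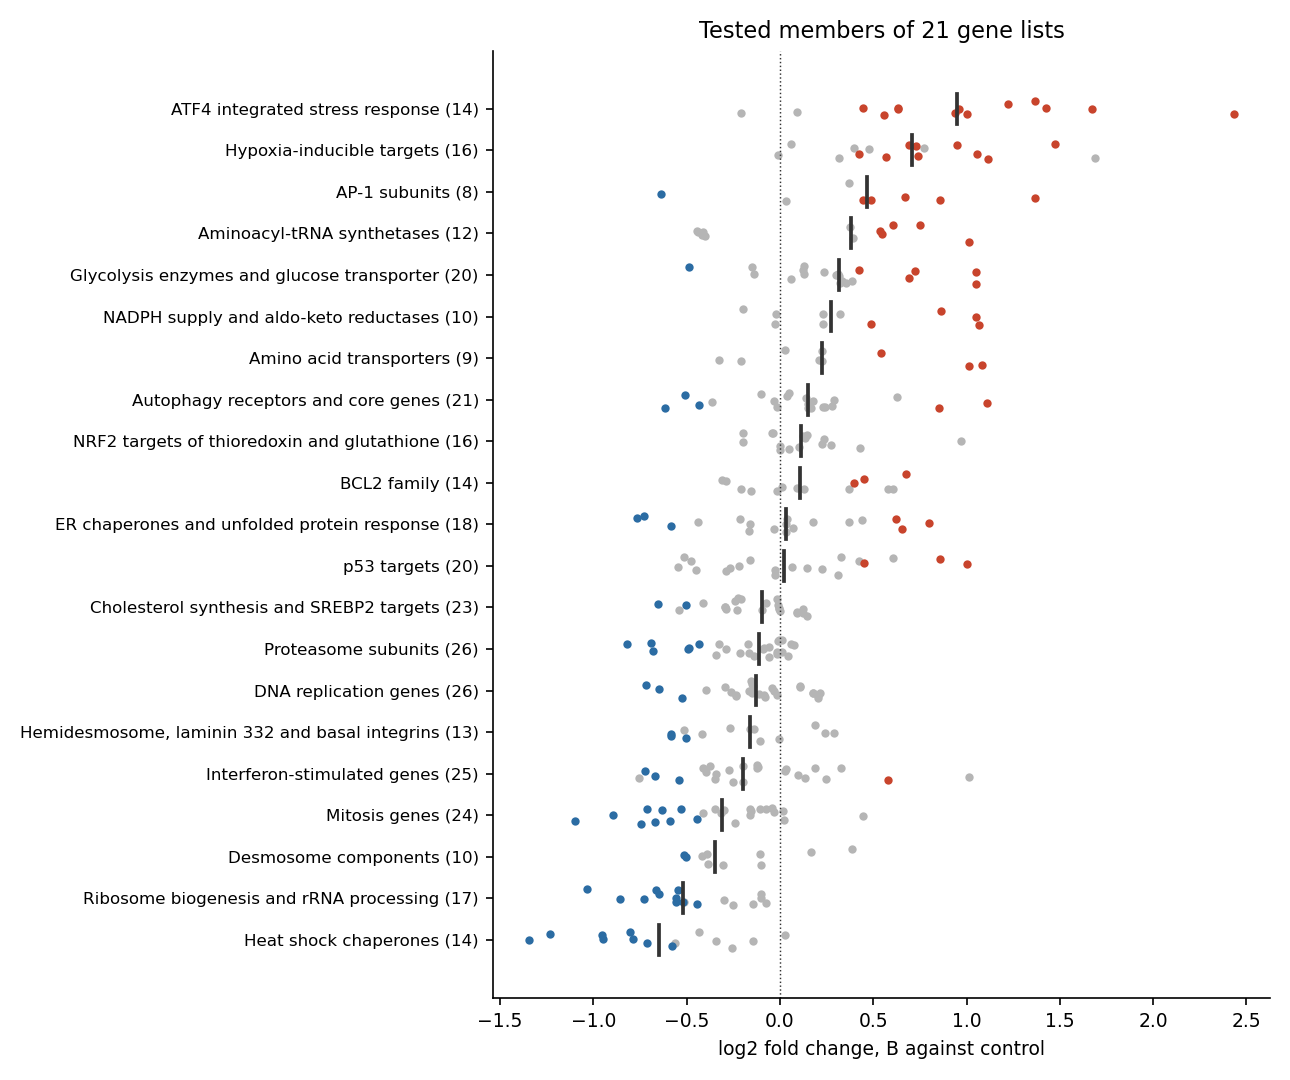
Log2 fold change of B against control for each tested member of 21 gene lists (number tested in parentheses), with red for called higher, blue for called lower, grey for not called, a black bar at the list's median and a dotted line at the median of all genes tested. The ATF4 and hypoxia lists lie farthest to the right, with medians of 0.95 and 0.71, and the ribosome biogenesis and heat shock lists farthest to the left, with -0.52 and -0.65.

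Of 398 lincRNA genes tested, 47 were called higher and 3 lower, of 506 antisense genes 46 and 2, of 106 processed transcripts 19 and 0, and of 55 sense intronic genes 10 and 0. Of 340 processed pseudogenes 6 were called higher and 7 lower, and of 19 mitochondrial tRNA genes 2 and 3. Most genes of these classes were not called. Among 11837 protein-coding genes, 570 were called higher (4.82%) and 865 lower (7.31%). Over all genes tested, 5.48% were called higher and 6.48% lower. The share called higher was 11.8% for lincRNA, 9.09% for antisense, 17.9% for processed transcripts and 18.2% for sense intronic genes. For processed pseudogenes the shares were 1.76% higher and 2.06% lower, and for mitochondrial tRNA genes 10.5% and 15.8%. Together lincRNA and antisense genes took 0.45%, 0.454% and 0.458% of the counts in Nc1, Nc2 and Nc3 and 0.493%, 0.584% and 0.584% in B1, B2 and B3, so that B1 was the closest to control. An exact two-sided permutation test over the 6 libraries gave p = 0.1, the smallest it can give. GABPB1-AS1 (ENSG00000244879, chromosome 15, 50354959 to 50372202) stood at 7.19, 7.69 and 9.33 CPM in control and 15.1, 40 and 28.5 CPM in B (1.79 ± 0.26, adjusted p = 0.00103), and without Nc1 it was not called (adjusted p = 0.166). KCNQ1OT1, the imprinted antisense RNA, had 0.623, 0.329 and 0.602 CPM against 0.947, 4.17 and 3.13 CPM (2.39 ± 0.48, adjusted p = 0.00622). In both, B2 and B3 were high and B1 stood nearest the controls. AHSA2P, KRT7-AS, MUC20-OT1 and SLC25A25-AS1 had that same order, while IGFL1P1 was higher in B1 as well, at 13.1 CPM against 6.35, 5.52 and 8.30 CPM. RN7SL2, a copy of the signal recognition particle RNA, fell from 12, 8.41 and 11 CPM to 3.03, 3.03 and 4.88 CPM (-1.51 ± 0.22, adjusted p = 0.00101), and was not called with offsets for GC content and length (adjusted p = 0.0623). The pseudogene HSP90AA2P, a copy of HSP90AA1, fell by 1.32 ± 0.18 next to its parent, and reads of the pair cannot be told apart here. With no strand setting given for the counting, antisense and sense intronic counts may include reads of the genes they overlap.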

How the data were processed

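RNA-seq reads were handled by the authors with FastQC, HISAT2 and StringTie on GRCh38, per the submitters' processing notes; their versions, the strand setting and the annotation release were not given in the sources used here. The deposited tables hold, per the file headers, whole-number counts and FPKM for 58336 genes. The deposited FPKM were used for levels per length and for alternatives. Of their sample columns, 6 over both tables (the other treated stem) were not used.

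Counts were tested with edgeR 4.0.16 (R 4.3.3; filterByExpr, TMM scaling, quasi-likelihood test, Benjamini-Hochberg adjustment, threshold 0.05), 3 libraries against 3, without a block; 13680 genes passed the filter. Past a fold of 1.5, glmTreat was used. A script checked the fit on simulated data. Alternatives used DESeq2 1.42.0 and limma 3.58.1, other scalings and filters, libraries left out, a replicate block and offsets for GC content and length. With total counts of 16354678 to 18028419 per library, the coefficient of variation between replicates was 14.43%; the number of libraries limits the precision.

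Gene lists and members were chosen with earlier results of these data known. Named genes are the 15 called protein-coding genes of largest change in either direction (mean of at least 5 CPM, no overlap), up to 4 called members per list and direction, heme enzymes, HMOX1, members shown in figures, markers, list members whose role a sentence needs, and 10 called genes of other biotypes. Some list members are not reported here, and 1 symbol was not matched. Promoter sequence is RefSeq's (GRCh38.p14). Gene positions are those deposited with the counts. GC content and transcript length are from GENCODE release 29, which held 99.8% of the listed genes.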

Additional observations from a re-analysis of the deposited data

How the results depend on the processing

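The 1636 calls numbered between 433 and 1825 when any 1 library was left out (752 without Nc3, 433 without B3). They numbered 3006 with offsets for GC content and length, and, in settings chosen after seeing the data, 997 with a term for the libraries with globin counts and 48 without those libraries. The 38 calls past a fold of 1.5 numbered between 17 and 106 with 1 library left out, 79 with upper quartile scaling, 111 with no filter on low counts, 25 with at least 10 counts in each library, 23 with the globin term and 9 without the globin libraries. The 159 called members of the gene lists numbered between 66 and 192 with 1 library left out, 284 with the offsets and 9 without the globin libraries. With a replicate block there were 858 calls, 43 calls past a fold of 1.5 and 90 called list members. Same-numbered libraries correlated at -0.308, -0.346 and -0.268 in their deviations from the group mean, and none correlated best with its own number. With 3 libraries in a group, such deviations cannot settle whether same-numbered libraries were handled together. No called gene changed direction in any of the 20 settings, which reuse the same libraries, so that few could have done so. Of 181 named calls, 22 held in every setting and 83 in all but the one without the globin libraries. Fewer libraries leave fewer degrees of freedom; for the other shifts the cause was not tested.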

Other observations

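U2AF1, a splicing factor, has an annotated copy, U2AF1L5. Summed over both, the control libraries Nc1, Nc2 and Nc3 had 321, 153 and 172 counts, and the libraries B1, B2 and B3 had 794, 803 and 410. The sum was higher in each B library than in each control, and how reads were divided between the copies is uncertain. The pair was picked after its values were seen and the sum was not tested.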
